A study of Mus musculus with 48 samples.

Results

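The 4 genes described here, Dscam, Plcb4, Prkag2 and Ank1, had higher scaled levels in the CNOT7 immunoprecipitate than in 2 controls, its own lysate and the immunoprecipitate of cells with the empty vector. In raw counts only Dscam was higher than in its lysate (28 against 21 over the 5 libraries of each), while Plcb4 had 18 against 26, Prkag2 15 against 21 and Ank1 15 against 25. They lie outside a list of 149 transcripts named as CNOT7 targets. That list also required an inverse relation to Cnot7 expression on arrays, so absence from it does not mean that no binding was found. They were selected on measured values, by the rule of an unadjusted p under 0.05 in both comparisons, which Ank1 narrowly missed when it was applied again here. They are 4 of the 26899 genes in the count table. The values of CNOT7 and vector cells that chose them are therefore given as a description. The 3 mutants of CNOT7, whose libraries the selection did not use, show whether the gain over the lysate recurred. They share replicate numbers with the CNOT7 libraries. Both the selection and the mutants' values leaned on the RIP libraries numbered 9, so the mutants are no fully independent repeat.

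CNOT7 is a deadenylase subunit of the CCR4-NOT complex, which shortens the poly(A) tail of mRNAs and thereby starts their decay or represses their translation. It has no sequence preference of its own. Adaptors such as TOB1 and RNA-binding proteins such as the Nanos and CPEB families bring the complex to particular 3' untranslated regions, and CNOT1 is its scaffold. The study proposes, from motif enrichment, that CPSF proteins may also take part. RNA immunoprecipitation (RIP) pulls down a tagged protein with an antibody and sequences the RNA that comes with it, so a bound mRNA should be more abundant in the precipitate than in the lysate and than in a precipitate from cells without the tag.

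All libraries came from 4T1, a mouse mammary carcinoma cell line of BALB/cfC3H origin, and all cells carried a transduced construct. Vector cells held the empty control vector, CNOT7 cells FLAG-tagged CNOT7, and the other 3 lines FLAG-tagged CNOT7 with amino acid substitutions: D40A, which removes the deadenylase activity, M141R, which removes binding to CNOT1, and E247A/Y260A, which removes binding to TOB1. Each line gave RIP libraries, made with the M2 anti-FLAG antibody from unpretreated cells, and input libraries from a part of the same lysate, so that there were 10 groups and 48 libraries. Replicates are numbered 6 to 10 and each group held 5, except the D40A groups with 4, where number 7 is absent. The constructs were expressed from the transduced vector in bulk cultures of 1 cell line, which limits what they say about CNOT7 at its native level.

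Depth differed between the kinds of library. Total counts ranged from 337861 to 826768 in the 24 inputs and from 1305627 to 10719137 in the 24 RIP libraries, and replicate 9 of D40A RIP was the deepest. However, 7 genes held from 92.4% to 95.5% of the counts in each RIP library and from 0.614% to 5.75% in each input, so that few counts were left for other genes in a precipitate. Levels are therefore given as CPM (counts per 1000000) after TMM scaling, which sets each library's size from the bulk of its genes. The 4 genes had from 0 to 59 counts per RIP library, and counting error alone is large at such numbers.

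The strand of the counts bears on every value. The library kit was directional, and the strand that was counted is not given in the sources used here. Genes that are strongly used in many cells had few counts: over the 24 inputs together, Vim (vimentin) had 15 counts, Tuba1b (tubulin) 43, Krt8 (a keratin of simple epithelia) 47, Gapdh (a glycolytic enzyme) 85 and Actb (actin) 298, of 12758502 in all. Per kb of exon this was 3.16 counts for Vim, 20.6 for Gapdh, 22.9 for Tuba1b and 111.2 for Actb, beside 10.7 for Dscam, a neuronal adhesion gene. The epithelial genes Epcam and Cdh1 were detected in all 24 inputs, whereas Krt8 was at 0 in 6 and Krt18 in 7. Among 569 pairs of a coding gene and an antisense gene that shares at least 100 bases of its exons, with at least 100 input counts together, the antisense gene had more input counts per kb in 84.5%, with a median ratio of 33.5. Prkag2os2, whose exons overlap 795 exonic bases of Prkag2 on the other strand, had 164.8 input counts per kb against 13.4 for Prkag2. Ank1 shares 862 exonic bases with Gm15816, which had 34.4 input counts per kb against 11.5 for Ank1. Reads of the 4 mRNAs and reads from their opposite strand cannot be told apart in these counts, and the word level below means the count assigned to the gene.

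The 4 genes differ in function but are all long. Dscam (ENSMUSG00000050272) encodes a cell adhesion molecule of the immunoglobulin family that acts in axon guidance and self-avoidance of neurites. It lies on chromosome 16 from 96590840 to 97170752 on the minus strand. Plcb4 (ENSMUSG00000039943) encodes phospholipase C beta 4, which produces inositol trisphosphate and diacylglycerol downstream of Gq proteins, and lies on chromosome 2 from 135659011 to 136014593 on the plus strand. Prkag2 (ENSMUSG00000028944) encodes a regulatory gamma subunit of the AMP-activated protein kinase, the sensor of cellular energy, and lies on chromosome 5 from 24862744 to 25100642 on the minus strand. Ank1 (ENSMUSG00000031543) encodes ankyrin 1, which ties membrane proteins to the spectrin skeleton and is best known from red blood cells, and lies on chromosome 8 from 22974844 to 23150497 on the plus strand. Positions are those of GENCODE M21 on GRCm38, whereas the counts were made on mm9. The genes span 579.9 kb for Dscam, 355.6 kb for Plcb4, 237.9 kb for Prkag2 and 175.7 kb for Ank1, against a median of 25.4 kb over the annotated genes tested. Between 89.8% (Ank1) and 98% (Dscam) of the genes tested are shorter. In exonic length, from 6.48 kb for Prkag2 to 13.53 kb for Ank1, between 70.5% and 94.5% of the genes tested are shorter.

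Among the motifs that the study considered in 3' untranslated regions were the Nanos response element (NRE), the CPSF site and the cytoplasmic polyadenylation element (CPE). Here the NRE was searched as UGUA, the CPE as UUUUAU and the CPSF site as AAUAAA, on the sense strand of the longest annotated 3' untranslated region of each member. UUUUAU followed by GUA holds overlapping CPE and NRE matches. The first 30-base stretch with the most kinds of motif is shown for each gene, 5′ to 3′ from the GRCm38 transcripts of GENCODE M21, with the motif bases in capitals.
Dscam: gcgcacugcucuuugucAAUAAAgUUUUAU
Plcb4: aagcuguuuucuuuguguuucUUUUAUGUA
Prkag2: gugauuUGUAaguauaggaaaagaUUUUAU
Ank1: aaucagccuugUGUAuaugaaaacAAUAAA
The stretches hold a CPSF site beside a CPE in Dscam, an NRE with a CPE in Plcb4 and Prkag2, and an NRE with a CPSF site in Ank1. Over the whole region, Dscam held 7 NRE, 3 CPSF and 2 CPE matches in 2219 bases. Plcb4 held 14, 2 and 2 in 1559 bases, Prkag2 8, 2 and 3 in 1112 bases, and Ank1 13, 3 and 1 in 2243 bases. All 4 regions thus held all 3 motifs, as did 44.1% of the 3' untranslated regions of 21037 coding genes. Among regions within 10% of the same length the share was 73% for Dscam and for Ank1, 60.3% for Plcb4 and 48% for Prkag2.

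In the 20 libraries that the selection used, Dscam, Plcb4 and Prkag2 met both conditions, and Ank1 did not quite. The fitted log2 difference of CNOT7 RIP over CNOT7 input was 2.89 ± 0.80 (SE) for Dscam, 1.83 ± 0.65 for Plcb4, 1.78 ± 0.71 for Prkag2 and 1.65 ± 0.73 for Ank1. Over vector RIP it was 2.07 ± 0.92, 1.62 ± 0.79, 2.28 ± 0.97 and 1.89 ± 0.94 in the same order. At an unadjusted p under 0.05 in edgeR's quasi-likelihood test 3.85% of the 4880 genes tested were higher over input and 1.78% over vector RIP, and nothing is read from the members' share, since these contrasts chose them. Just inside the limit lay Plcb4, whose larger p was 0.0479, and just outside it lay Ank1 with 0.0531 and Arid1b with 0.0551. The only other gene that met both conditions was Ppp1r12b, which the study had listed. With all 10 groups in the fit, 7 unlisted genes met the conditions, namely Ank1, Dscam, Bcr, Kat6b, Sik3, Spef1 and 4933413J09Rik, so Plcb4 and Prkag2 no longer did. Without the replicate 9 libraries 0 members met them.

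The counts of Dscam show how the RIP values were spread. In vector RIP, replicates 6 to 10 had 0, 3, 2, 1 and 1 counts. In CNOT7 RIP they had 1, 5, 0, 18 and 4 counts, and in D40A RIP, replicates 6, 8, 9 and 10 had 1, 3, 59 and 3 counts. Replicate 9 was the highest library of both constructs. The E247A/Y260A RIP libraries had 0, 7, 0, 16 and 3 counts, and those of M141R had 0, 6, 2, 20 and 4. Again replicate 9 was highest, and each construct had a RIP library with 1 or 0 counts. In the inputs Dscam had 0 to 14 counts in CNOT7 cells, 1 to 6 in D40A, 1 to 7 in E247A/Y260A, 1 to 8 in M141R and 1 to 8 in vector cells. As a level, the mean of D40A RIP was 10.4 ± 11.3 CPM (SD, n = 4) beside 1.43 ± 1.15 in its input, that of E247A/Y260A RIP 7.59 ± 8.47 beside 2.11 ± 1.00, and that of M141R RIP 9.61 ± 9.16 beside 1.27 ± 1.12 (SD, n = 5 each). RIP and input libraries overlapped in each of the 3 mutants.

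Plcb4 had 0, 3, 0, 2 and 1 counts in replicates 6 to 10 of vector RIP. It had 0, 4, 3, 8 and 3 in CNOT7 RIP, and in D40A RIP 28 counts in replicate 9 and 0 in each of the other 3 libraries. D40A RIP thus rested on 1 library alone for this gene. E247A/Y260A RIP had 1, 3, 1, 14 and 2 counts and M141R RIP 0, 4, 1, 22 and 2. Both of these had their highest library in replicate 9 too. The inputs had 1 to 12 counts in CNOT7 cells, 3 to 7 in D40A, 3 to 6 in E247A/Y260A, 4 to 7 in M141R and 5 to 9 in vector cells. The mean level was 3.19 ± 6.37 CPM in D40A RIP (SD, n = 4), 6.16 ± 6.61 in E247A/Y260A RIP and 8.07 ± 10.8 in M141R RIP (SD, n = 5 each), against 2.45, 1.43 and 1.92 in their inputs. The SD exceeded the mean in all 3 RIP groups.

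Prkag2 had the fewest counts in vector RIP, with 0, 2, 1, 0 and 0 in replicates 6 to 10. CNOT7 RIP had 0, 5, 2, 6 and 2 counts, and D40A RIP 0, 3, 32 and 0 in replicates 6, 8, 9 and 10. Replicate 9 stood highest, narrowly in CNOT7 RIP and far above the rest in D40A RIP. E247A/Y260A RIP had 3, 4, 0, 12 and 2 counts and M141R RIP 2, 2, 2, 12 and 2. M141R RIP was the most even group outside replicate 9, and the scaled level of each of its libraries lay above that of every M141R input. The inputs had 0 to 8 counts in CNOT7 cells, 1 to 5 in D40A, 0 to 9 in E247A/Y260A, 1 to 6 in M141R and 1 to 10 in vector cells. The mean level was 4.95 ± 6.87 CPM in D40A RIP (SD, n = 4), 5.99 ± 5.63 in E247A/Y260A RIP and 5.96 ± 4.91 in M141R RIP (SD, n = 5 each), against 1.49, 1.19 and 1.25 in their inputs.

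Ank1 had 0, 1, 0, 2 and 1 counts in vector RIP. CNOT7 RIP had 1, 2, 3, 5 and 4 counts, and D40A RIP 1, 2, 23 and 2 in replicates 6, 8, 9 and 10. It was the most even of the 4 genes in CNOT7 RIP. E247A/Y260A RIP had 3, 3, 2, 10 and 4 counts and M141R RIP 1, 1, 3, 12 and 3. Every E247A/Y260A RIP library, from 4.00 to 12.6 CPM, lay above every library of its input, from 1.52 to 2.90 CPM, and of vector RIP, from 0 to 3.53 CPM. In the inputs Ank1 had 1 to 13 counts in CNOT7 cells, 4 to 7 in D40A, 4 to 8 in E247A/Y260A, 4 to 18 in M141R and 0 to 22 in vector cells. The mean level was 5.17 ± 3.90 CPM in D40A RIP (SD, n = 4), 7.09 ± 3.66 in E247A/Y260A RIP and 6.26 ± 5.38 in M141R RIP (SD, n = 5 each), against 3.11, 2.22 and 2.91 in their inputs.

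**Figure D1:**
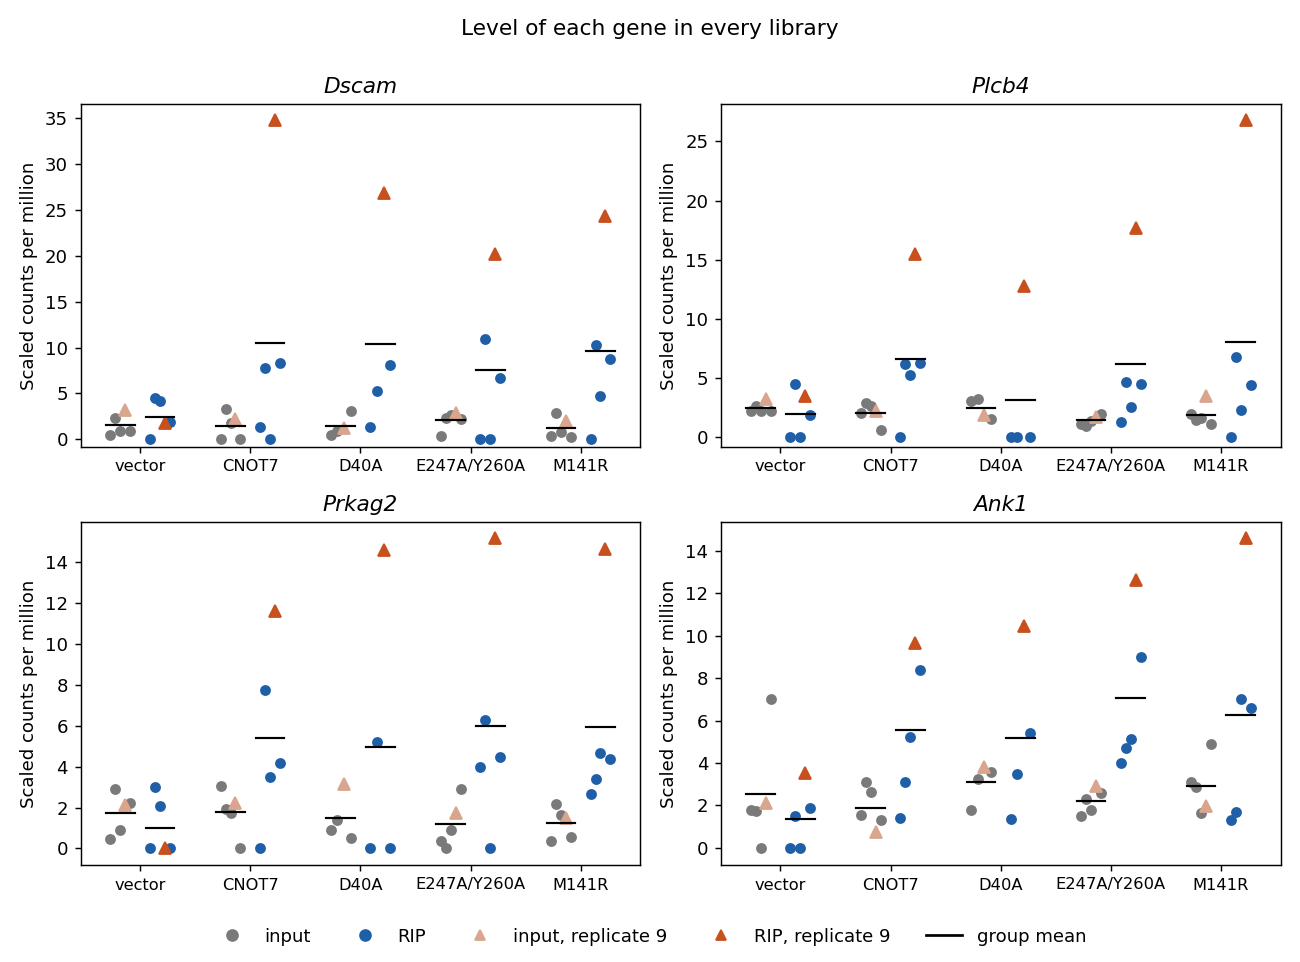
Level of Dscam, Plcb4, Prkag2 and Ank1 in each of the 48 libraries, in CPM after TMM scaling (linear y axis), by construct (x axis), with inputs in grey, RIP in blue, replicate 9 as triangles and the group mean as a bar. The replicate 9 RIP library is the highest of each FLAG construct for every gene, from 9.65 CPM (Ank1, CNOT7) to 34.8 CPM (Dscam, CNOT7), while vector RIP stays at or under 4.49 CPM.

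The RIP level of all 4 genes was highest in replicate 9 in each of the 4 FLAG constructs. The same held for a share of all genes: replicate 9 was the highest library for 48.5% of the 6931 genes tested in D40A RIP, 38.6% in M141R RIP, 34.8% in E247A/Y260A RIP, 22.1% in CNOT7 RIP and 21.7% in vector RIP. Against the mean of the other replicates, replicate 9 was from 2.22-fold (Ank1) to 5.42-fold (Plcb4) higher in E247A/Y260A RIP and from 3.51-fold (Ank1) to 7.91-fold (Plcb4) higher in M141R RIP. In D40A RIP it was 3.07-fold higher for Ank1, 5.50-fold for Dscam and 8.36-fold for Prkag2, and Plcb4 was at 0 in the other 3 libraries. In vector RIP, Ank1 alone had its highest value in replicate 9, at 3.53 CPM, and Prkag2 was at 0 there. The inputs of replicate 9 did not share the rise to that extent: their ratio to the mean of the other inputs in the mutants ran from 0.630 (Ank1, M141R) to 3.40 (Prkag2, D40A). The main values for the mutants are therefore also given without replicate 9.

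The first question was whether the gain over input recurred in the mutants. Averaged over the 3 mutants, all 4 genes rose over their inputs after TMM scaling, a direction that library size alone reversed for each of them. The log2 difference was 2.60 ± 0.51 (SE) for Dscam (edgeR's quasi-likelihood test, adjusted p = 4.12e-05 over 6931 genes by Benjamini-Hochberg), 2.24 ± 0.47 for Prkag2 (adjusted p = 1.10e-04), 1.73 ± 0.44 for Plcb4 (adjusted p = 1.23e-03) and 1.21 ± 0.37 for Ank1 (adjusted p = 6.97e-03). With limma on log2 CPM, Plcb4 was at 0.45 (adjusted p = 0.309) and the other 3 rose, where 235 of the 6931 genes tested did. With RIP and input of a lysate as a pair in edgeR, Plcb4 was at 1.09 (adjusted p = 0.0813) and the other 3 rose, where 421 genes did. In the main fit the share of all genes tested that rose in this comparison was 8.45%. The median of all genes was -0.58 on the same scale, so relative to it each gene's difference is larger by 0.58. The split of calls depended on the scaling, with 586 genes higher and 2276 lower after TMM and 1332 higher and 794 lower with DESeq2's size factors.

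The length of the genes moved with this result. Of the 701 genes tested that span at least 175.7 kb, as all 4 members do, 56.5% rose over input in the mean of the mutants, with a median log2 difference of 1.26. Of the 6183 shorter genes 2.99% rose, with a median of -0.69. The genes were also ordered by span and cut into 10 equal groups. The median fell from -0.78 in the group around 1.7 kb to -1.02 around 9.0 kb. From there it rose to 0.15 around 122.6 kb and 1.29 around 323.7 kb. Replicate 9 was the highest RIP library in all 4 FLAG constructs for 49.5% of the long genes and 4.58% of the shorter ones. The part of gene length in the members' values was not tested.

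**Figure D2:**
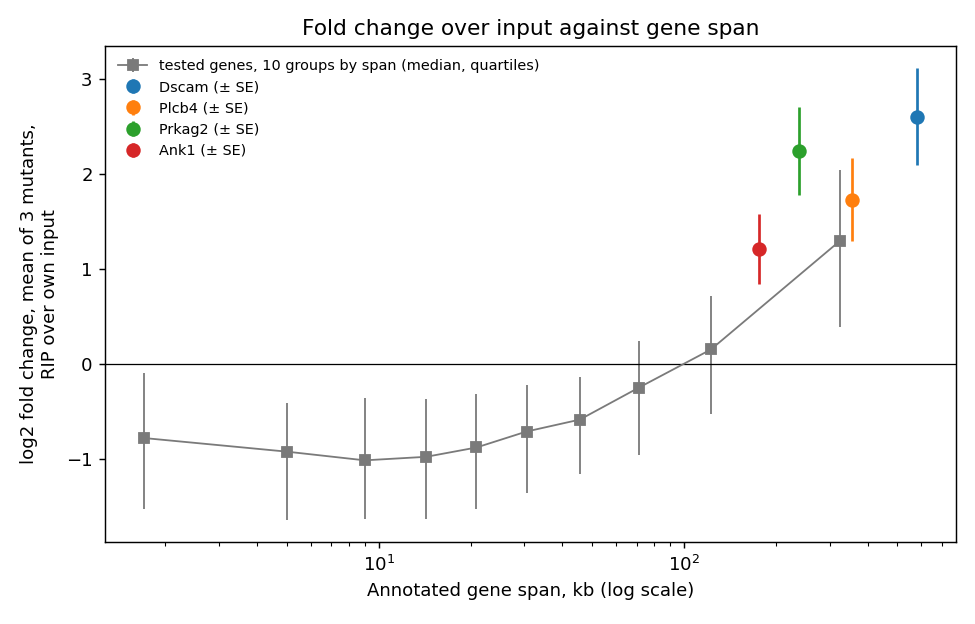
Fitted log2 difference of RIP over input in the mean of the 3 mutants after TMM scaling (y axis; library size alone puts the 4 genes below 0) against annotated gene span in kb (x axis, log scale). Grey squares are 10 equal groups of the tested genes ordered by span, with the median and quartiles. The 4 genes, with SE, lie at 175.7 kb and above, and the median of the longest group is 1.29.

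Within single mutants fewer members passed the threshold. In D40A, Dscam rose (log2 difference 2.96 ± 0.94 SE, adjusted p = 0.0416), while Prkag2 was at 2.06 ± 0.85 (adjusted p = 0.122), Plcb4 at 0.89 ± 0.79 and Ank1 at 0.88 ± 0.68 (1 of 4, against 1.27% of all genes). In E247A/Y260A, Prkag2 rose (2.38 ± 0.79, adjusted p = 0.0398), while Plcb4 was at 2.14 ± 0.76 (adjusted p = 0.0576), Ank1 at 1.66 ± 0.63 (adjusted p = 0.0716) and Dscam at 1.91 ± 0.83 (adjusted p = 0.123; 1 of 4, against 1.07%). In M141R, Dscam rose by 2.93 ± 0.86 (adjusted p = 0.0156), Plcb4 by 2.16 ± 0.72 (adjusted p = 0.0347) and Prkag2 by 2.28 ± 0.79 (adjusted p = 0.0405), while Ank1 was at 1.08 ± 0.62 (adjusted p = 0.232; 3 of 4, against 2.84%). With RIP and input of a lysate as a pair, Plcb4 in M141R was at 1.59 (adjusted p = 0.149), which left 2 of 4. In that fit 168 of the 6931 genes tested rose in M141R. The 12 main values are edgeR values with SE after TMM scaling, and library size alone reversed the sign of all 12. With limma on log2 CPM 0 members passed in any single mutant, and in M141R Dscam was at 1.65 (adjusted p = 0.0831), Plcb4 at 0.87 (adjusted p = 0.303) and Prkag2 at 1.37 (adjusted p = 0.0860). With DESeq2 all 4 passed in M141R, where Ank1 was at 2.06 (adjusted p = 0.0364) and 567 of the 6931 genes tested rose, and 3 passed in E247A/Y260A, where 303 did. RIP replicate 9 was the library whose absence lowered these values most. Without it Dscam in D40A was at 1.67 (adjusted p = 0.412), Prkag2 in E247A/Y260A at 1.81 (adjusted p = 0.211), and Dscam, Plcb4 and Prkag2 in M141R at 2.27, 0.92 and 1.66 (adjusted p = 0.125, 0.523 and 0.250), so that 0 members passed in each mutant. Other libraries ended a call with the value little changed. Dscam in D40A stayed between 2.81 and 3.14 (adjusted p = 0.0507 to 0.0847) without input replicate 6, 8 or 9 or RIP replicate 10, and Prkag2 in E247A/Y260A between 2.26 and 2.53 (adjusted p = 0.0513 to 0.0760) without input replicate 6, 7 or 8 or RIP replicate 7. In M141R, Plcb4 was at 2.16 and 2.13 and Prkag2 at 2.08 and 2.24 (adjusted p = 0.0572 to 0.0910) without input replicates 6 and 10, which left 1 member in each case. In E247A/Y260A 3 and 2 members passed without RIP replicates 6 and 8. A difference between the mutants was not detected: the test of the difference itself gave an adjusted p of 1 for each gene, with 0% of all genes called and unadjusted edgeR values from 0.422 (Plcb4) to 0.961 (Prkag2).

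Without the replicate 9 libraries 1 of 4 members still rose in the mean of the mutants, against 1.56% of all genes, whose median was -1.06. Dscam was at 1.67 ± 0.58 (SE, adjusted p = 0.0206), Prkag2 at 1.40 ± 0.61 (adjusted p = 0.0643) and Ank1 at 0.55 ± 0.45 (adjusted p = 0.325). Plcb4 turned to -0.98 ± 0.78 (adjusted p = 0.313), a fitted value that depends on D40A RIP, where the other 3 libraries were at 0. A total of 3 counts there would still put its level at no more than 0.663 times that of the corresponding inputs. In no single mutant did a member pass the threshold without replicate 9. Leaving out replicate 9 of D40A RIP alone left 2 members higher in the mean of the mutants. Without replicate 9, 4.14% of the genes of at least 175.7 kb rose, against 1.25% of the shorter ones.

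**Figure D3:**
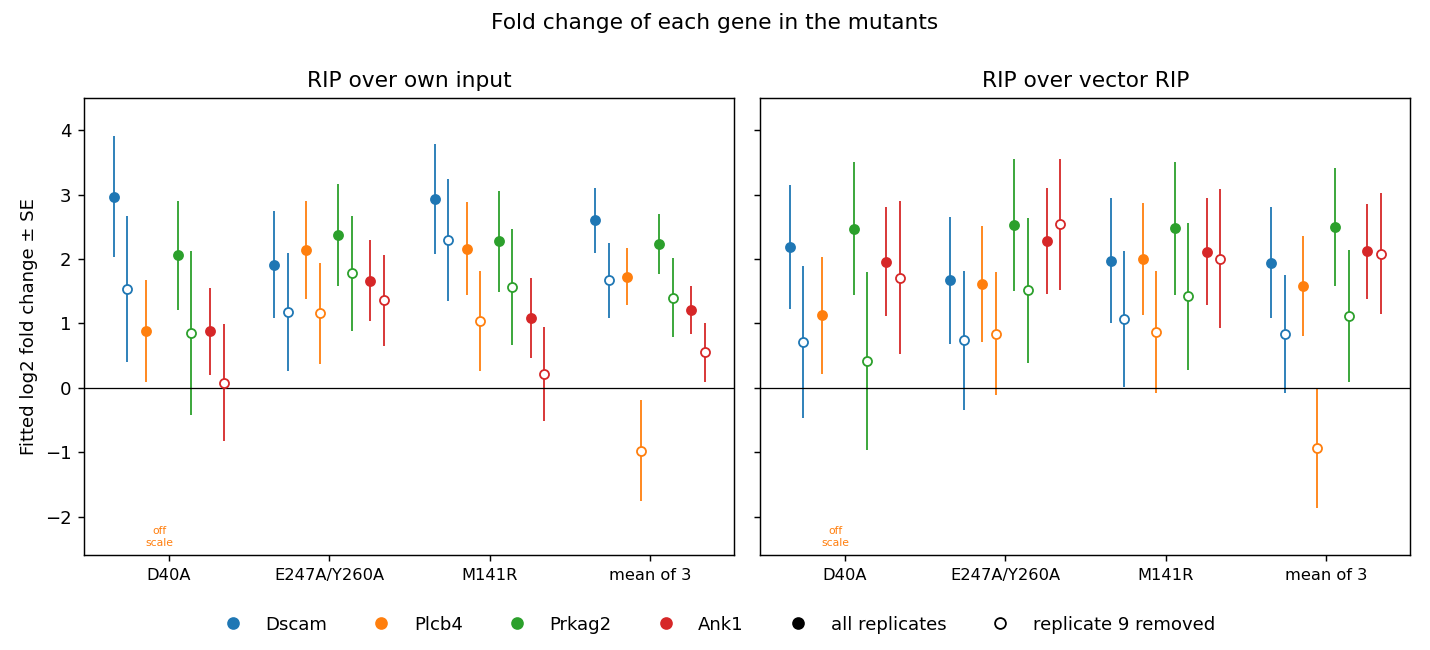
Fitted log2 fold change with SE (y axis) of the 4 genes in each mutant and in the mean of the 3 (x axis), for RIP over input on the left and RIP over vector RIP on the right, after TMM scaling; library size alone turns every filled point on the left below 0. Filled points use all replicates and open points leave out replicate 9, which lowers most values. Plcb4 without replicate 9 in D40A is off scale because its 3 libraries are at 0.

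Within lysates the difference was mixed. The RIP value, as log2 CPM after TMM scaling with a prior count of 2, was above that of its own input in 11 of the 14 mutant lysates for Dscam, Prkag2 and Ank1 and in 10 of 14 for Plcb4. In replicate 9 it was above in all 3 mutants, by 2.36 to 3.46 for Dscam, 2.13 to 2.65 for Plcb4, 1.83 to 2.52 for Prkag2 and 1.21 to 2.28 for Ank1. In the other 11 lysates it was above in 8 for Dscam, Prkag2 and Ank1 and in 7 for Plcb4, with values from -1.81 (Plcb4) to 2.68 (Dscam). Such counts of lysates were not made for all genes, and 56.5% of the genes of at least 175.7 kb rose in the fit. Nothing particular to the members is therefore read from them. In vector cells, where no FLAG protein is made, RIP was above input in 3 of 5 lysates for Dscam, 2 for Plcb4, 2 for Prkag2 and 1 for Ank1, with values from -1.45 to 1.32. With RIP and input of a lysate as a pair in the fit, 3 members rose in the mean of the mutants and Plcb4 did not (log2 difference 1.09, adjusted p = 0.0813, edgeR). Of the 6931 genes tested, 421 rose in that fit.

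**Figure D4:**
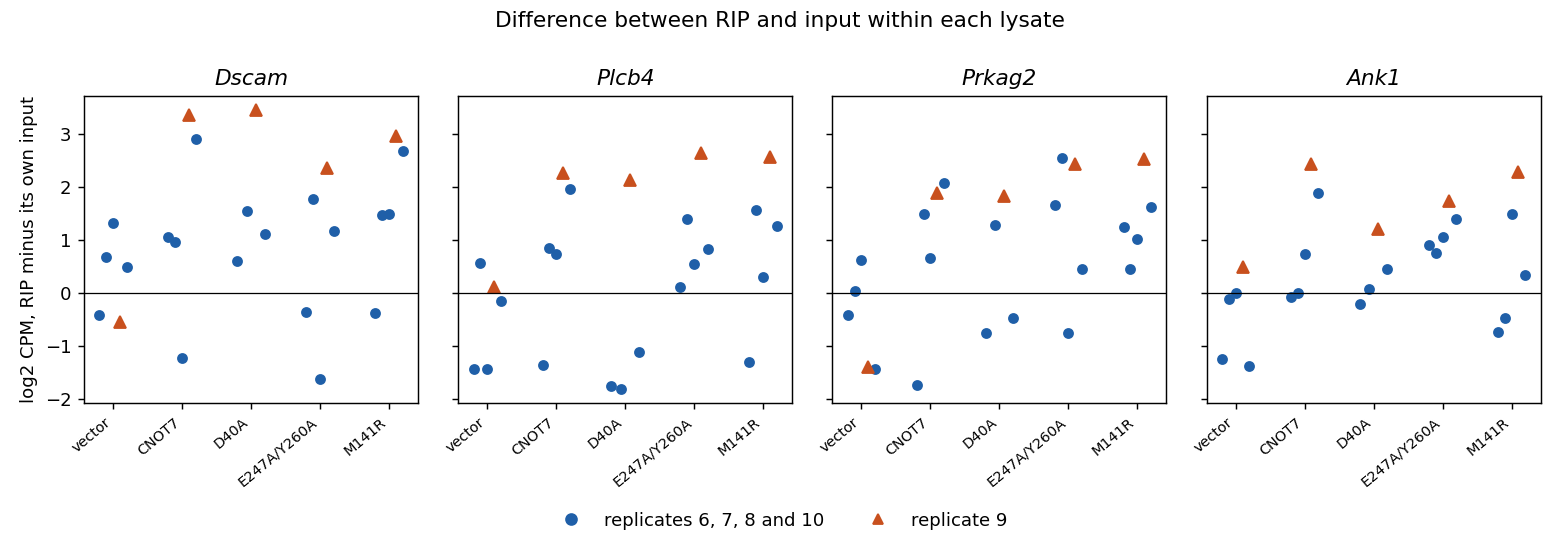
Difference of log2 CPM (TMM scaled, prior count 2) between the RIP library and the input of the same lysate (y axis) by construct (x axis), 1 point per lysate, with replicate 9 as triangles. In the 3 mutants the triangles lie between 1.21 and 3.46 and the other lysates between -1.81 and 2.68, while the lysates of vector cells lie between -1.45 and 1.32.

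The second question was whether the mutants' precipitates exceeded that of vector cells. This comparison shares its 5 vector RIP libraries with the selection, which favoured genes low in them, and the 3 mutants share them with each other, so it is no independent repeat. In vector RIP the members had 7 (Dscam), 6 (Plcb4), 3 (Prkag2) and 4 (Ank1) counts in all. The 14 mutant RIP libraries together had 124, 78, 76 and 70, which gives ratios of 5.02 (95% counting interval 2.37 to 12.7), 3.68 (1.62 to 10.3), 7.18 (2.37 to 35.6) and 4.96 (1.85 to 18.7) after scaling. These intervals cover counting error only. Replicate 9 held from 45.5% (Ank1, E247A/Y260A) to 100% (Plcb4, D40A) of a member's counts in a mutant RIP group, so it weighs heavily in these ratios. In edgeR's test 0 of 4 members passed the adjusted threshold in any mutant or in their mean, as did 0% of all genes in each of the 4 comparisons. DESeq2 and limma on log2 CPM also called 0 members there.

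At an unadjusted p under 0.05 in edgeR, Dscam, Prkag2 and Ank1 were higher in D40A RIP than in vector RIP (3 of 4, against 6.39% of all genes), Prkag2 and Ank1 in E247A/Y260A RIP (2 of 4, against 3.81%), all 4 in M141R RIP (against 4.16%) and all 4 in the mean of the mutants (against 5.17%). The log2 difference in that mean was 1.94 ± 0.86 for Dscam, 1.58 ± 0.78 for Plcb4, 2.49 ± 0.91 for Prkag2 and 2.12 ± 0.73 for Ank1 (SE), with adjusted p of 0.777 to 0.807. Without replicate 9 the values were 0.84 ± 0.91, -0.93 ± 0.93, 1.12 ± 1.02 and 2.08 ± 0.94, and Ank1 alone moved by less than its SE. Pooled over the 11 remaining mutant libraries the ratio to vector RIP was 1.77 (0.724 to 5.22) for Dscam, 1.28 (0.403 to 5.36) for Plcb4, 2.45 (0.725 to 12.9) for Prkag2 and 4.59 (1.14 to 40.0) for Ank1, where vector RIP held 2 counts.

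Few member and group combinations were free of overlap. In D40A 0 of 4 members had every RIP library above every control library, where 0.981% of all genes did so against input and 0.519% against vector RIP. In E247A/Y260A this held for Ank1 against input (0.707% of all genes) and against vector RIP (0.26%). In M141R it held for Prkag2 against input (0.606%) and for 0 members against vector RIP (0.202%).

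In the lysates themselves the 4 genes were not found to differ. Over the vector and mutant inputs the adjusted p was 1 for each (edgeR, unadjusted 0.686 for Plcb4 to 0.874 for Prkag2), where 0.0144% of all genes, 1 gene, was called. Group means in the 5 input groups ran from 1.27 to 2.11 CPM for Dscam, 1.43 to 2.50 for Plcb4, 1.19 to 1.79 for Prkag2 and 1.87 to 3.11 for Ank1. In bulk lysates, fewer cells with a transcript and less transcript per cell cannot be told apart.

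Some genes related to the members were also tested. Of 30 paralogs and partners, named from textbook knowledge with earlier results of these data known, 26 were in the table and 14 were tested. In the mean of the mutants 6 of the 14 rose over input after TMM scaling and 0 fell, beside 8.45% of all genes, and their median log2 difference was 0.69 against -0.58 for all genes. Among the partners of ankyrin, the spectrin gene Sptan1 was highest (log2 difference 3.14 ± 0.40 SE, adjusted p = 5.87e-09, edgeR), followed by Sptbn1 (2.34 ± 0.40) and the paralog Ank2 (2.11 ± 0.52). The paralog Dscaml1 rose by 2.55 ± 0.55, the phospholipase paralog Plcb1 by 2.26 ± 0.53 and Itpr2, a receptor for inositol trisphosphate, by 1.96 ± 0.44. The spectrin gene Sptb, with more counts than Sptan1 or Sptbn1, was at 0.63 ± 0.31 (adjusted p = 0.0928, edgeR) and did not pass. Ank3, the ankyrin with the most counts, was at 0.45 ± 0.41, and Prkaa1, the catalytic partner of Prkag2, at -0.53 ± 0.50. The paralog Prkag1 had 23 counts in all and was not tested. Of the 14, 9 span at least 175.7 kb and 4 of these rose, where 56.5% of all genes of that span did. Of the 5 shorter ones 2 rose, Sptan1 (65.9 kb) and Sptbn1 (168.8 kb), where 2.99% of the shorter genes did. That share climbs with span, from 4.93% in the group around 71.0 kb to 9.74% around 122.6 kb and 57.1% around 323.7 kb, and Sptbn1 lies just under the limit of 175.7 kb. Without replicate 9, Sptan1 (2.77 ± 0.47, adjusted p = 9.04e-06) and Sptbn1 (1.72 ± 0.46, adjusted p = 3.34e-03) still rose in edgeR, and Dscaml1, Plcb1, Itpr2 and Ank2 did not pass. Prkaa1 then fell (-2.12 ± 0.80, adjusted p = 0.0332), as did 36.8% of all genes in that fit, where the median was -1.06.

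The partners were also counted in single mutants, with all replicates. Over input, 2 of 14 rose in D40A (Sptan1 and Sptbn1; 1.27% of all genes), 1 in E247A/Y260A (Sptan1; 1.07%) and 4 in M141R (Sptan1, Sptbn1, Dscaml1 and Plcb1; 2.84%). Over vector RIP 0 of 14 passed the adjusted threshold in edgeR's test, and 1 of 14, Itpr1, had an unadjusted p under 0.05 in each mutant, beside 6.39%, 3.81% and 4.16% of all genes. The 3 comparisons share the 5 vector RIP libraries, and 1 of 14 is near those shares, so nothing is read from it. In the mean of the mutants Sptan1 and Sptbn1 were each at 0.12 over vector RIP (SE 0.51 and 0.55, adjusted p = 1.00 in edgeR), beside their 3.14 and 2.34 over input.

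The genes with the most similar levels over the 48 libraries, by Spearman's rho of log2 CPM, were 1700112E06Rik (0.82) and Ptprt (0.81) for Dscam, Lrba (0.79) and Plxna4 (0.75) for Plcb4, Spag16 and Psd3 (0.73 each) for Prkag2, and Myo1d (0.76) and Itsn1 (0.73) for Ank1. Among the members rho ran from 0.47 (Dscam and Ank1) to 0.61 (Plcb4 and Prkag2). These values are a description, since all libraries of a kind share the gap in depth between RIP and input.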

How the data were processed

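RNA of 4T1 cells was sequenced after anti-FLAG RIP and from the lysate (48 libraries, 10 groups). The authors deposited whole-number counts of reads per gene, not normalized. The submitters' processing notes name BWA, HTSeq and mm9; versions, roles and the strand counted are not given in the sources used here. The series design calls the replicates biological, and nothing more says that they came from separate cultures, so p-values measure the spread between these libraries. Replicates of a group differed by more than sampling noise (chi-square divided by its degrees of freedom was at least 4.98 in 92 pairs).

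Groups came from the sample labels. From the deposited counts, genes were kept with filterByExpr (all 4 members passed), scaled with TMM and tested, all 10 groups together, in R 4.3.3 with edgeR 4.0.16 (quasi-likelihood test, two-sided), Benjamini-Hochberg adjustment over 6931 genes and a threshold of 0.05; the 20 libraries of CNOT7 and vector cells gave 4880 genes. The study names only a per-gene test. A total of 3 counts is the floor for a group at 0, and intervals of pooled ratios are exact at 95%. Alternatives were DESeq2 1.42.0, limma 3.58.1 on log2 CPM (prior count 2), other scalings and filters, blocks, each library left out, and, added after seeing the data, the paired lysates and removal of replicate 9, also for the partners. Gene positions came from GENCODE M21 with Python 3.11.15, which holds 26555 of the 26899 identifiers; spans and antisense pairs were chosen for description after seeing the data. Named genes were the members, partners that passed the threshold, the most counted paralogs, the 2 genes most like each member and those at the rule's limit; Vim, Tuba1b, Krt8, Krt18, Epcam, Cdh1 and the opposite-strand genes were added. Members and lists were chosen with earlier results of these data known.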

Additional observations from a re-analysis of the deposited data

Results flagged for a closer look

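Of 40 gene and group combinations, 6 held a library far from the rest of its group by Dixon's criterion at 95%. That criterion flags about 1 in 20 groups of normally distributed values. These values come from low counts and the genes share their libraries, so the 6 are not set against that rate. Of the 6, 5 were RIP libraries of replicate 9. Dscam was at 34.8 CPM there in CNOT7 RIP, a group that the selection used, against 8.37 CPM in the next library. Plcb4 was at 12.7 CPM in D40A RIP, where the other 3 libraries were at 0, at 17.7 CPM in E247A/Y260A RIP against 4.70, and at 26.8 CPM in M141R RIP against 6.82. Prkag2 was at 14.6 CPM in M141R RIP against 4.69. In the other direction, Dscam in E247A/Y260A input was lowest in replicate 6, at 0.381 CPM against 2.28 in the next library.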

How the results depend on the processing

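Library size without TMM factors left 0 members higher than input in each mutant and in their mean and reversed all 16 log2 values: in D40A to -1.29 (Dscam), -3.42 (Plcb4), -2.26 (Prkag2) and -3.39 (Ank1), in E247A/Y260A to -2.25, -1.98, -1.77 and -2.51, in M141R to -0.97, -1.73, -1.69 and -2.92, and in the mean to -1.502, -2.38, -1.91 and -2.94. The median of all genes was then between -4.58 and -4.77, so the members stayed above it. In E247A/Y260A, DESeq2 and leaving out the dominant genes each gave 3 members higher, where 303 of 6931 and 170 of 3658 genes were higher. In M141R DESeq2 gave 4, where 567 of 6931 genes were higher, with Ank1 at 2.06 in place of 1.08. With limma 0 were higher in each single mutant and 3 in the mean, where 235 of the 6931 genes tested were higher. Plcb4 was then at 0.45 in the mean, and in D40A it turned to -0.64 over input and -0.21 over vector RIP.

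The replicate numbers are shared, and the deviations of same-numbered libraries correlated over 0.1 for most numbers. The values ran from 0.038 to 0.479 between RIP and vector RIP and from 0.057 to 0.463 between RIP and its input. What libraries of a number have in common was not tested. The main fit did not pair RIP with vector RIP by number. With the number as a replicate block, 4 members were higher than input in E247A/Y260A in place of 1. Of the 6931 genes tested, 211 were higher there in place of 74. With lysates paired, 2 were higher in M141R and 3 in the mean, where 168 and 421 of the 6931 genes tested were higher. Plcb4 in D40A then turned to -0.11.

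Without any replicate 9 library, members higher than input fell to 0 in D40A, E247A/Y260A and M141R and to 1 in their mean, and Plcb4 turned to -5.13 (D40A over input), -4.52 (D40A over vector RIP), -0.98 and -0.93 (the means), where the values in D40A set a group at 0 and are no bounds. Over all fits without 1 library these ranged from -4.95 (without D40A RIP replicate 9, as for the next 3) to 1.34, -4.79 to 1.70, -0.14 to 2.002 and -0.37 to 2.17. Leaving out 1 library at a time gave 0 to 1 members higher in D40A, 0 to 3 in E247A/Y260A, 0 to 3 in M141R, 2 to 4 in the mean and 0 to 3 members meeting the selection. The shares of all genes in those fits are not given here. The selection was met by 0 members without CNOT7 RIP replicate 9, vector RIP replicate 6 or vector RIP replicate 10, or without all of replicate 9, and by 1 without CNOT7 RIP replicate 7 or 10 or vector RIP replicate 8 or 9. Without the filter on low counts Plcb4 in M141R was at 1.90 over input (adjusted p = 0.0510, edgeR), which left 2 members higher there, where 738 of 26899 genes were. With the groups compared alone in a fit, 2 members were tested and higher in the mean, where 586 of 5580 genes were. The other comparisons gave no value for the members. With at least 10 counts in a group no member was left. The cause of these shifts was not tested. Depth limits the comparisons with vector RIP, where no member had over 3 counts in a library.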
